A study of Mus musculus with 20 samples.

Results

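The 9 genes described here make up the core of MHC class I antigen presentation in the mouse: the light chain gene B2m, the heavy chain genes H2-K1, H2-D1, H2-T23 and H2-M3, the peptide transporter genes Tap1 and Tap2, the loading factor gene Tapbp, and Nlrc5, a transcriptional activator of class I genes. They were taken by symbol from a table of 25239 genes, and all 9 were present and were tested in every comparison. Read counts came from bulk RNA of dissected preoptic area (POA) tissue, a brain region that controls male sexual behavior and holds GnRH neurons. Samples were 20 male mice in 4 groups of 5: control and dnFGFR mice, each housed with a same-sex (SS) or an opposite-sex (OS) partner from PND20 until tissue collection at PND320. dnFGFR mice were homozygous for a transgene that encodes an FGFR1 without its kinase domain under a rat GnRH promoter, so that FGF signaling was reduced in GnRH neurons, a very small fraction of POA cells. Control mice came from matings of siblings heterozygous for the transgene, described as matched in background, and the labels name no strain. OS pairs bred freely and raised pups, so that housing with a female also meant living with young. In bulk tissue, fewer cells of a type and less RNA per cell cannot be told apart.

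Class I molecules display short peptides from the cell's own proteins on the surface of nearly all nucleated cells, where CD8 T cells and NK cells read them. The peptides are cut by the proteasome, carried into the endoplasmic reticulum by the Tap1 and Tap2 transporter, and loaded with the help of Tapbp (tapasin) onto a heavy chain paired with beta-2 microglobulin, the B2m product. In brain, class I is low in most neurons and higher in endothelial cells and microglia, it is induced by interferons, and it has been linked to synaptic pruning and plasticity. H2-K1 and H2-D1 encode classical, highly polymorphic heavy chains. H2-T23 encodes Qa-1, a nonclassical heavy chain seen by the inhibitory NKG2A receptor, and H2-M3 encodes a heavy chain that presents formylated peptides.

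Of the 9 genes, 7 lie on chromosome 17 within or beside the H2 complex, from Tapbp at chr17:33919478-33929290 and H2-K1 at chr17:33996012-34000619 through Tap1 (chr17:34187556-34197225), Tap2 (chr17:34204479-34216321), H2-D1 (chr17:35263094-35267497) and H2-T23 (chr17:36029977-36032701) to H2-M3 at chr17:37270234-37274485. B2m lies at chr2:122147687-122153082 and Nlrc5 at chr8:94434335-94527272 (RefSeq, GRCm38). Heavy chain genes are near copies of each other, so reads can be split between them or shared. The count of H2-L, a class I gene listed beside H2-D1 in the table, was between 75.0% and 83.6% of the H2-D1 count in every mouse, and the counts of heavy chain genes are therefore uncertain as levels of 1 gene.

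Promoter sequences are shown because 4 of these genes share a spaced pair of motifs, an arrangement known from the X2 and Y boxes at which Nlrc5 acts with RFX, CREB and NF-Y factors. Of the 9 genes, 7 had a promoter entry in the RefSeq table (GRCm38.p6), and Tap2 and Nlrc5 had none. The 250 bases before the start are printed 5′ to 3′ for B2m and H2-M3. The H2-K1 and H2-D1 windows lie within annotated transcripts or the span of the gene, and only their motif stretches are printed. Capitals mark letters that match, on either strand, 1 of 5 motifs: GGGATTCC (a site of the NF-kappaB kind), TTTCACTTC (an interferon-stimulated response element), AANNGAAA (a shorter interferon factor motif, which overlaps the previous one), TGACG (a CREB and ATF core) and CCAAT (bound by NF-Y).
B2m, chr2:122147437-122147686, plus strand: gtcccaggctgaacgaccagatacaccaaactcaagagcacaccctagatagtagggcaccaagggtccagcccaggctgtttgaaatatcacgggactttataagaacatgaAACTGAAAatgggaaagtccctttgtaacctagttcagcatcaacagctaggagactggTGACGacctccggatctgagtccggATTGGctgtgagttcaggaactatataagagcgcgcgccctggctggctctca
H2-M3, chr17:37269984-37270233, plus strand: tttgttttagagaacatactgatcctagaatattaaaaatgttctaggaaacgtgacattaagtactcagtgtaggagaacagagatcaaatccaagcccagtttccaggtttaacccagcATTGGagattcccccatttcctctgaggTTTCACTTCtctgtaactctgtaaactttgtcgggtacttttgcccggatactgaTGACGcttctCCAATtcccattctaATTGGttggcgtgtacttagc
H2-K1, chr17:34000429-34000457, minus strand: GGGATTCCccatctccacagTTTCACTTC
H2-K1, chr17:34000359-34000388, minus strand: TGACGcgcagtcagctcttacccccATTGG
H2-D1, chr17:35262924-35262952, plus strand: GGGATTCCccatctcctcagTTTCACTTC
H2-D1, chr17:35262993-35263022, plus strand: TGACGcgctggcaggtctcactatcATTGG
The TGACG core was followed on the same strand by ATTGG, the complement of CCAAT, in the promoters of B2m, H2-K1, H2-D1 and H2-M3, with exactly 20 bases between them in all 4. This spacing, noticed after the sequences were read, was held by 30 of 32851 RefSeq promoter windows of the same length (0.0913%). It was not present in the windows of H2-T23, Tap1 and Tapbp. GGGATTCC was in the H2-K1 and H2-D1 windows and in 0.889% of all windows. In both promoters TTTCACTTC followed it after 12 bases, and this pairing was in 4 windows in all, of H2-D1, H2-K1 and H2-Q6. TTTCACTTC was also in the H2-M3 window and in 0.402% of all windows. TGACG alone was in 17.8%, CCAAT in 33.8% and AANNGAAA in 21.3% of all windows, and among the 7 genes in 5, 7 and 5. Over 190 overlapping bases without gaps, the H2-K1 and H2-D1 windows were identical at 87.4%. A match of letters describes the sequence and does not show binding in these samples.

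Counted reads per mouse were between 32353600 and 39871400, so that 1 CPM (reads scaled to a fixed library total) stood for 32.4 to 39.9 reads and a count of 0 allows up to 3 reads, or 0.0752 to 0.0927 CPM, for counting error only. A count per gene does not show which Fgfr1 reads came from the transgene, and Fgfr1 was at 86.6 to 99.3 CPM in control mice and 81.6 to 102 CPM in dnFGFR mice. Gnrh1, the gene of the neurons that carry the transgene, was lower in dnFGFR mice by a log2 difference of -0.58 ± 0.15 (SE; adjusted p = 0.0657, edgeR's quasi-likelihood test with Benjamini-Hochberg adjustment). The highest chi-square per gene between 2 mice was 127 in dnFGFR OS mice and 23.9 to 39.0 in the other groups. Among dnFGFR OS mice, replicate 5 stood apart at B2m, as described below. No collection date held mice of both genotypes, and the part of date in a genotype difference cannot be told apart from that of genotype.

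The control mice did not share a single pattern of reads over the H2 complex. H2-Ea, the class II E alpha gene, is not transcribed in mice of the C57BL/6 strain from which the reference genome was made. It had 15, 21 and 30 reads in control SS replicates 1, 3 and 4 and 30 and 29 reads in control OS replicates 4 and 5. It had 0 reads in the other 5 control mice and in all 10 dnFGFR mice. The same 5 control mice stood apart at other genes of the region, which were chosen after their values were seen. Gm11127 had 74 to 289 reads in them and 0 to 6 in the other 15 mice. Gm10499 had 56 to 125 reads against 0 to 5. AA388235, a noncoding RNA gene near H2-K1, had 0 reads in control SS replicate 3 and control OS replicate 5, 64 to 76 in the other 3 of these mice, and 135 to 204 elsewhere. Rps18, a ribosomal protein gene of the same stretch, had 166 and 230 reads in that pair of mice, and 1736 to 2002 in the other 3, against 2230 to 4891 elsewhere. H2-Q1 had 135 to 303 reads in the 5 mice and 37 to 111 in the others. H2-T10 had 153 to 244 against 50 to 131, and Msh5 had 52 to 85 against 7 to 35. Not every gene looked at separated them: H2-K2 had 1 to 79 reads against 53 to 107, and Gm8909 had 8 to 24 against 0 to 9. Collection date went with this split in all control mice. Dates with 3, 1 and 1 control mice held only mice with H2-Ea reads, and dates with 4 and 1 held none. Leaving out the 5 mice therefore leaves out whole collection dates, and the part of date cannot be told apart from that of the H2 pattern.

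**Figure D1:**
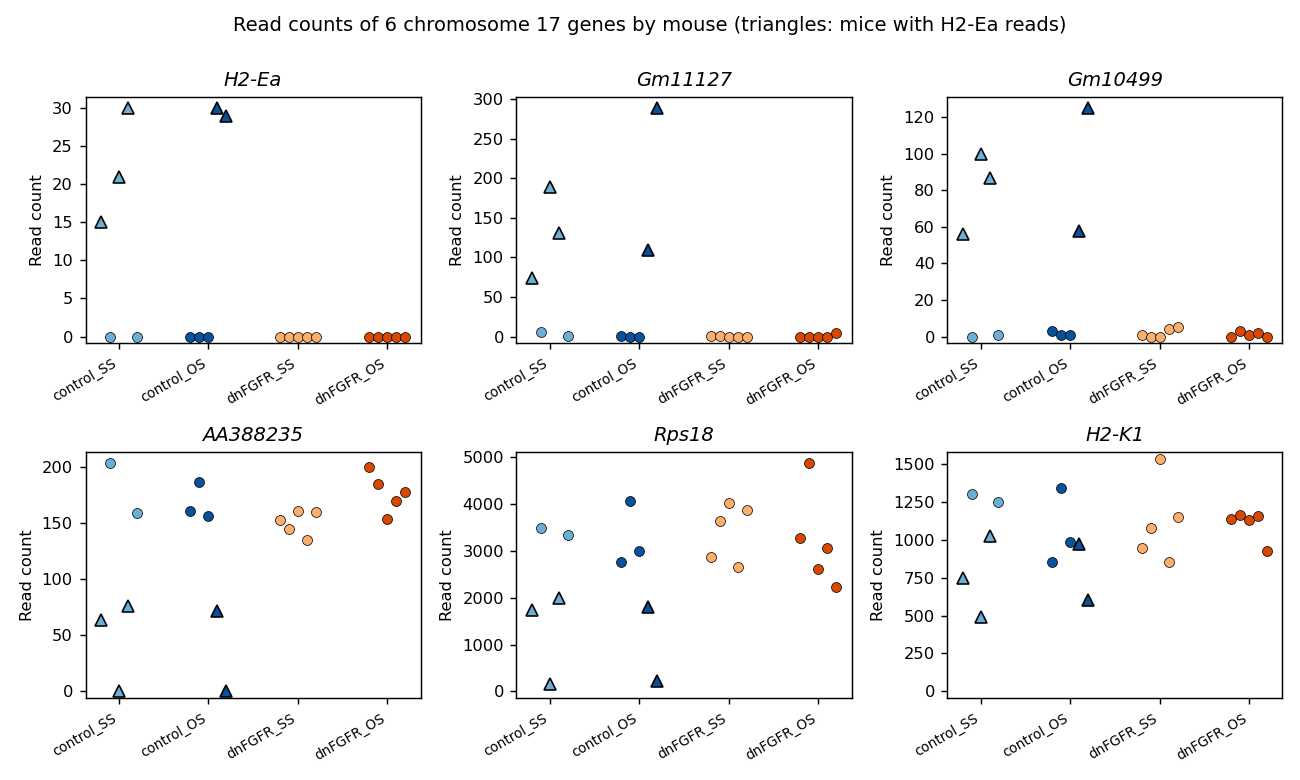
Read counts (y axis) of 6 genes of chromosome 17 in each mouse of the 4 groups (x axis), 5 mice a group, with triangles for the 5 control mice with H2-Ea reads. H2-Ea, Gm11127 and Gm10499 were near 0 outside these 5 mice, while AA388235 and Rps18 were lower in them than in any other mouse.

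Values are given with all mice, and for genotype over both housings the values without the 5, an alternative chosen after the data were seen, are set beside those of the 9 genes and of list and region genes that passed. Counts depend on how well reads match the reference, and whether sequence differences between H2 haplotypes moved the counts of H2-K1 or H2-T23 was not tested.

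B2m was the most abundant of the 9 mRNAs when set on a scale per kilobase of exon (RPKM), at 78.0 ± 16.6 (SD, n = 20 mice), a level above 97.6% of genes with reads. H2-D1 came next at 19.3 ± 2.68 RPKM and lay below B2m in 20 of 20 mice. Tapbp stood at 10.98 ± 0.873 RPKM and H2-K1 at 9.92 ± 2.30 RPKM, and this order held in 13 of 20 mice, so the levels of these neighbors overlapped. H2-T23 was at 4.59 ± 1.15 RPKM, Tap2 at 2.63 ± 0.314 RPKM and H2-M3 at 2.02 ± 0.431 RPKM. The order of H2-T23 over Tap2, and that of Tap2 over H2-M3, each held in 18 of 20 mice. Tap1, the partner of Tap2 in the transporter, was at 0.676 ± 0.0836 RPKM and lay below H2-M3 in 20 of 20 mice. Nlrc5 was lowest at 0.161 ± 0.0548 RPKM, from 19 to 86 reads a mouse.

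**Figure D2:**
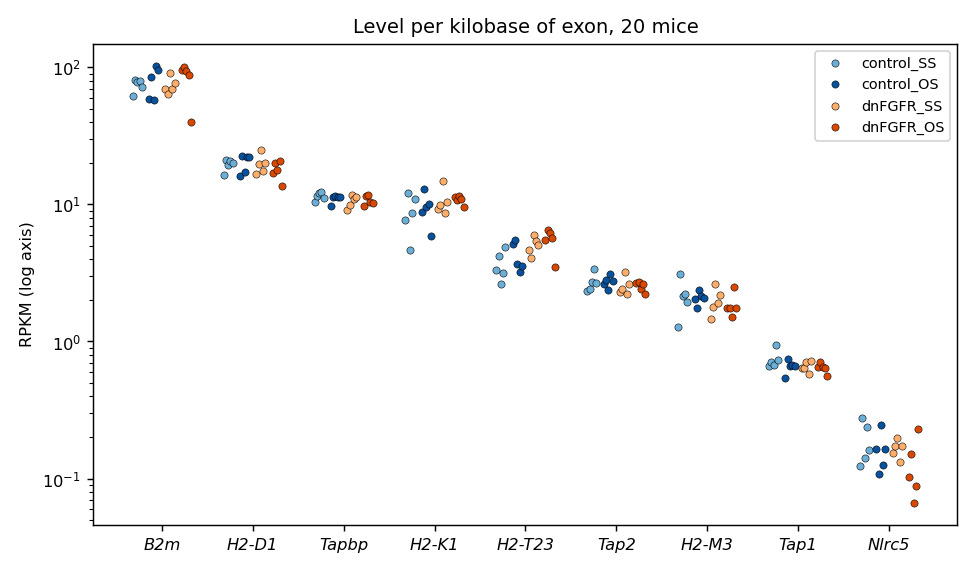
Level of each gene in RPKM on a log axis (y axis) for 20 mice, with genes ordered by their mean (x axis) and groups by color. B2m lay above all others in 20 of 20 mice, and Nlrc5 lay below all others, with Tapbp and H2-K1 overlapping.

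The spread between mice differed among the genes. Tapbp varied least, with a highest mouse at 1.36 times the lowest, followed by Tap2 at 1.52 times. Nlrc5 varied most at 4.19 times, with H2-K1 next at 3.19 times. The 3 lowest H2-K1 values of the 20 were in control SS replicate 3, control OS replicate 5 and control SS replicate 1, all mice with H2-Ea reads. The 3 lowest H2-T23 values were in control SS replicates 3 and 4 and control OS replicate 4, also among the 5. The lowest B2m and the lowest H2-D1 values were in dnFGFR OS replicate 5.

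Comparing genotypes asked whether class I presentation differed between mice with reduced FGF signaling in GnRH neurons and control mice. None of the 9 genes passed the test in any genotype comparison. H2-T23, the Qa-1 heavy chain gene, came closest and had higher values in dnFGFR mice. It was at 9.62, 12.2, 7.61, 9.17 and 14.0 CPM in control SS mice. In control OS mice it was at 14.9, 15.8, 10.5, 9.35 and 10.2 CPM. In dnFGFR SS mice it was at 13.4, 11.7, 17.2, 15.7 and 14.6 CPM. These values overlapped with those of control SS mice only through control SS replicates 2 and 5. In dnFGFR OS mice it was at 15.9, 18.7, 17.8, 16.5 and 10.14 CPM, so that 4 of 5 lay above every control mouse and replicate 5 lay among the control mice.

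Over both housings, with 10 mice a genotype, the log2 fold change of H2-T23 was 0.42 ± 0.12 (SE), with a 95% interval from 0.16 to 0.68. Its unadjusted p was 0.00268 and its adjusted p was 0.142 over 17445 genes (edgeR's quasi-likelihood test with Benjamini-Hochberg adjustment). In SS mice the log2 fold change was 0.46 ± 0.15 (adjusted p = 0.361), and in OS mice it was 0.38 ± 0.18 (adjusted p = 0.709). The 3 comparisons share their mice. Over 28 alternatives of the comparison over both housings, the adjusted p of H2-T23 was between 0.0312, without dnFGFR OS replicate 5, and 0.919, without the 5 control mice that had H2-Ea reads. Without those 5 mice the log2 fold change fell to 0.18 ± 0.13, and to 0.15 ± 0.15 in SS mice and 0.20 ± 0.20 in OS mice. The H2-T23 difference between genotypes thus moved by over 1.5 times with the mice that stood apart at H2-Ea. The parts of strain background and of collection date in this move cannot be told apart, and neither was tested.

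H2-K1 was the only other gene with a positive log2 fold change over 0.1 in both housings. It was at 22.5, 35.8, 13.6, 25.5 and 31.9 CPM in control SS mice. In control OS mice it was at 25.9, 38.2, 28.1, 29.6 and 17.2 CPM. In dnFGFR SS mice it was at 27.4, 29.3, 43.3, 25.4 and 30.4 CPM, and in dnFGFR OS mice at 33.2, 31.7, 33.6, 32.4 and 28.3 CPM. The groups overlapped, and the 3 lowest values were all in control mice with H2-Ea reads. Over both housings the log2 fold change was 0.23 ± 0.14 (adjusted p = 0.595), and without the 5 mice it was -0.02 ± 0.11 (adjusted p = 1.00).

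**Figure D3:**
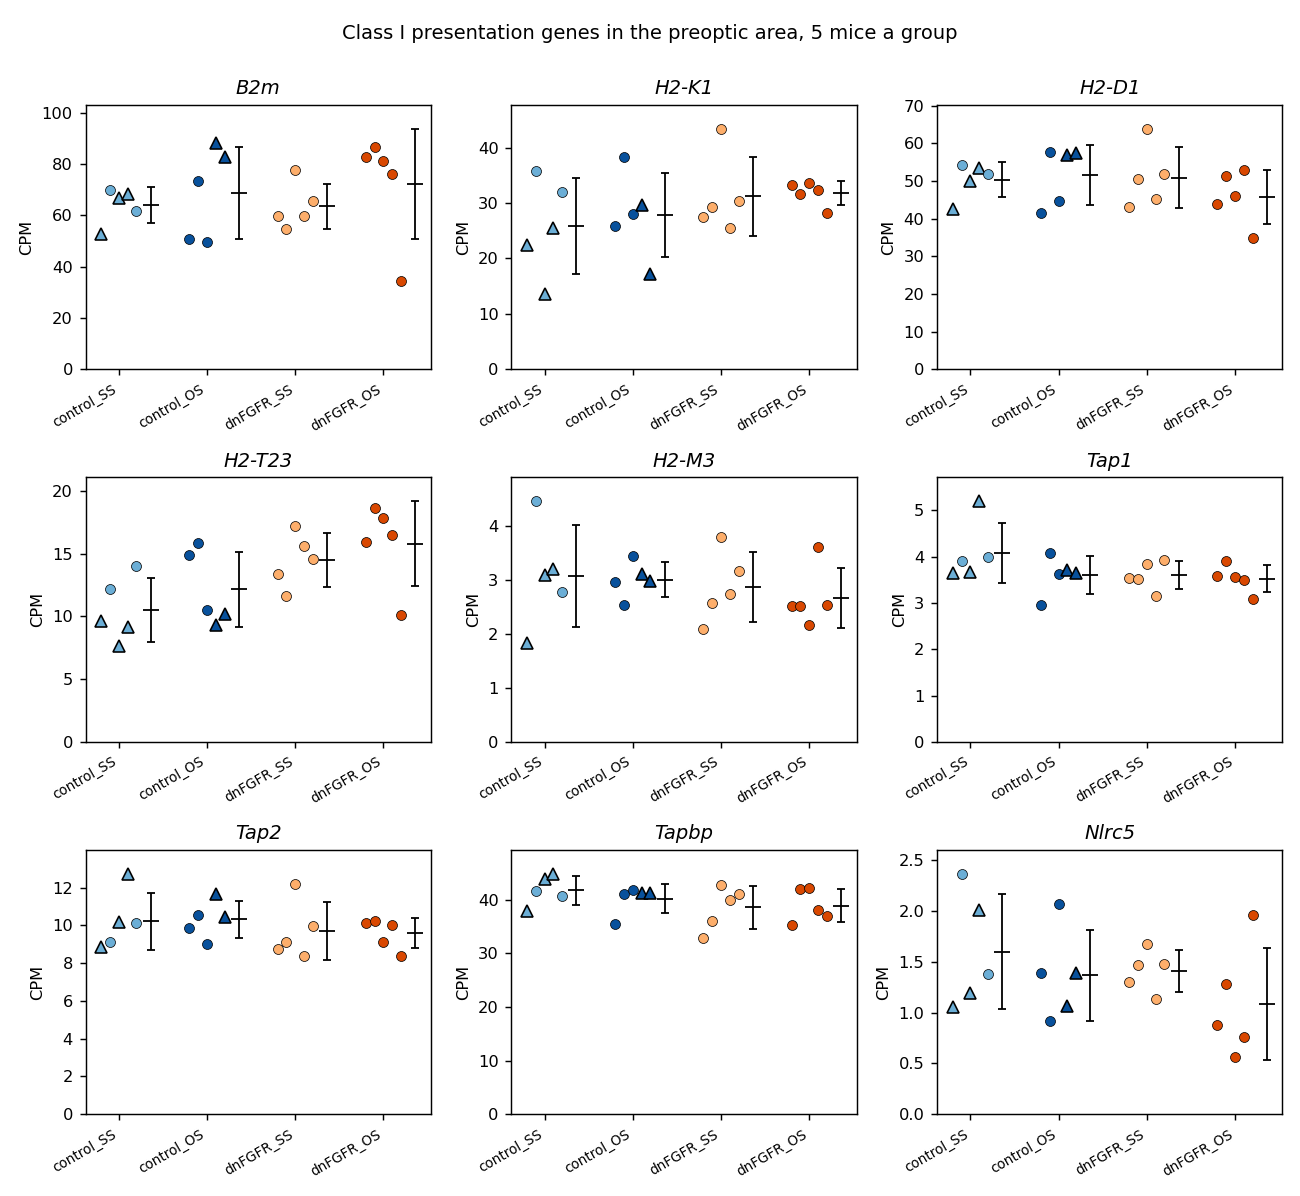
CPM (y axis) of each of the 9 genes in each mouse, by group (x axis), with the group mean and SD as bars (n = 5 mice a group) and triangles for the control mice with H2-Ea reads. The 3 lowest values of H2-K1 and the 3 lowest of H2-T23 are triangles, and groups overlapped for all 9 genes in every comparison.

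The other 7 genes had log2 fold changes between -0.26 and 0.03 over both housings. B2m, the light chain gene, was at 52.9, 70.0, 66.9, 68.5 and 61.7 CPM in control SS mice and at 59.9, 54.5, 77.5, 59.9 and 65.6 CPM in dnFGFR SS mice. Its log2 fold change over both housings was 0.03 ± 0.13. H2-D1 stood at -0.08 ± 0.09, H2-M3 at -0.13 ± 0.14 and Nlrc5 at -0.26 ± 0.21. The transporter genes stood at -0.11 ± 0.09 for Tap1 and -0.09 ± 0.08 for Tap2, and Tapbp at -0.08 ± 0.05. Adjusted p over both housings was 0.595 or more for all but H2-T23. Without the 5 control mice B2m was at 0.16 ± 0.17, H2-D1 at -0.059 ± 0.10, H2-M3 at -0.23 ± 0.17 and Nlrc5 at -0.42 ± 0.26. Tap1 was then at -0.064 ± 0.11, Tap2 at -0.013 ± 0.093 and Tapbp at -0.049 ± 0.071, and none of the 7 passed. The interval of Tapbp was the narrowest, from -0.19 to 0.03, and that of Nlrc5 was the widest, from -0.69 to 0.18, at 19 to 86 reads a mouse.

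The 9 were then read against all genes. Of the 9, 0 passed in the comparison over both housings, where 232 of 17445 genes did (1.33%), and 1 of 9 had an unadjusted p under 0.05, beside 1957 of all genes. DESeq2, run over the 22187 genes with reads and not the 17445 above, called 1 of the 9, H2-T23, and 425 of all genes. In SS mice 0 of 9 passed beside 34 of 16992 genes (0.2%), with 1 of 9 and 1467 of all genes at an unadjusted p under 0.05. In OS mice 0 of 9 passed beside 9 of 16941 genes (0.0531%), with 0 of 9 and 1190 of all genes at an unadjusted p under 0.05. DESeq2 called 0 of the 9 and 223 of all genes in SS mice, and 0 and 78 in OS mice. Without the 5 control mice with H2-Ea reads, the count of the 9 that passed was again 0 in each of the 3 genotype comparisons. Of all genes, 27 passed in SS mice, 9 in OS mice and 102 of 17896 tested over both housings. The median log2 fold change of the 9 over both housings was -0.08, beside -0.00039 for all genes tested, with 3 above 0 and 6 below.

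Housing compared mice with a female partner against mice with a male partner, within each genotype. In control mice 0 of 9 genes passed, beside 21 of 17004 genes (0.124%). None of the 9 and 1224 of all genes had an unadjusted p under 0.05, and DESeq2 called 0 and 157. The log2 fold changes (OS minus SS) of the 9 were between -0.23 for Nlrc5 and 0.21 for H2-T23, with a median of 0.01. Without the 5 mice with H2-Ea reads 0 of 9 and 6 of all genes passed, and H2-T23 was at 0.06. In dnFGFR mice 0 of 9 passed, beside 0 of 16944 genes (0%). None of the 9 and 1138 of all genes had an unadjusted p under 0.05, and DESeq2 called 0 and 5. The 9 values were between -0.38 for Nlrc5 and 0.19 for B2m, with a median of -0.02.

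B2m showed how 1 mouse bore on a housing value. It was at 50.7, 73.5, 49.4, 88.1 and 82.5 CPM in control OS mice and at 82.9, 86.4, 81.1, 76.1 and 34.3 CPM in dnFGFR OS mice. In the latter group 4 mice lay between 76.1 and 86.4 CPM and replicate 5 lay below every other mouse of the 20. The log2 fold change of B2m for OS housing in dnFGFR mice was 0.19 ± 0.20 with all mice and 0.36 without replicate 5, and neither passed. H2-D1, at 43.9, 51.3, 46.1, 53.0 and 34.8 CPM in dnFGFR OS mice, was also lowest in that mouse, with a log2 fold change of -0.15 ± 0.13 for housing in dnFGFR mice.

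The housing by genotype interaction tested whether the housing difference itself differed between genotypes. Again 0 of 9 genes passed, beside 0 of 17445 (0%). None of the 9 and 595 of all genes had an unadjusted p under 0.05, and DESeq2 called 0 and 1. The values were between -0.19 for H2-D1 and 0.15 for Tap1. The 95% intervals reached from -1.04 to 0.74 for Nlrc5, which does not exclude a large interaction for this gene in either direction, and from -0.15 to 0.29 for Tapbp.

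**Figure D4:**
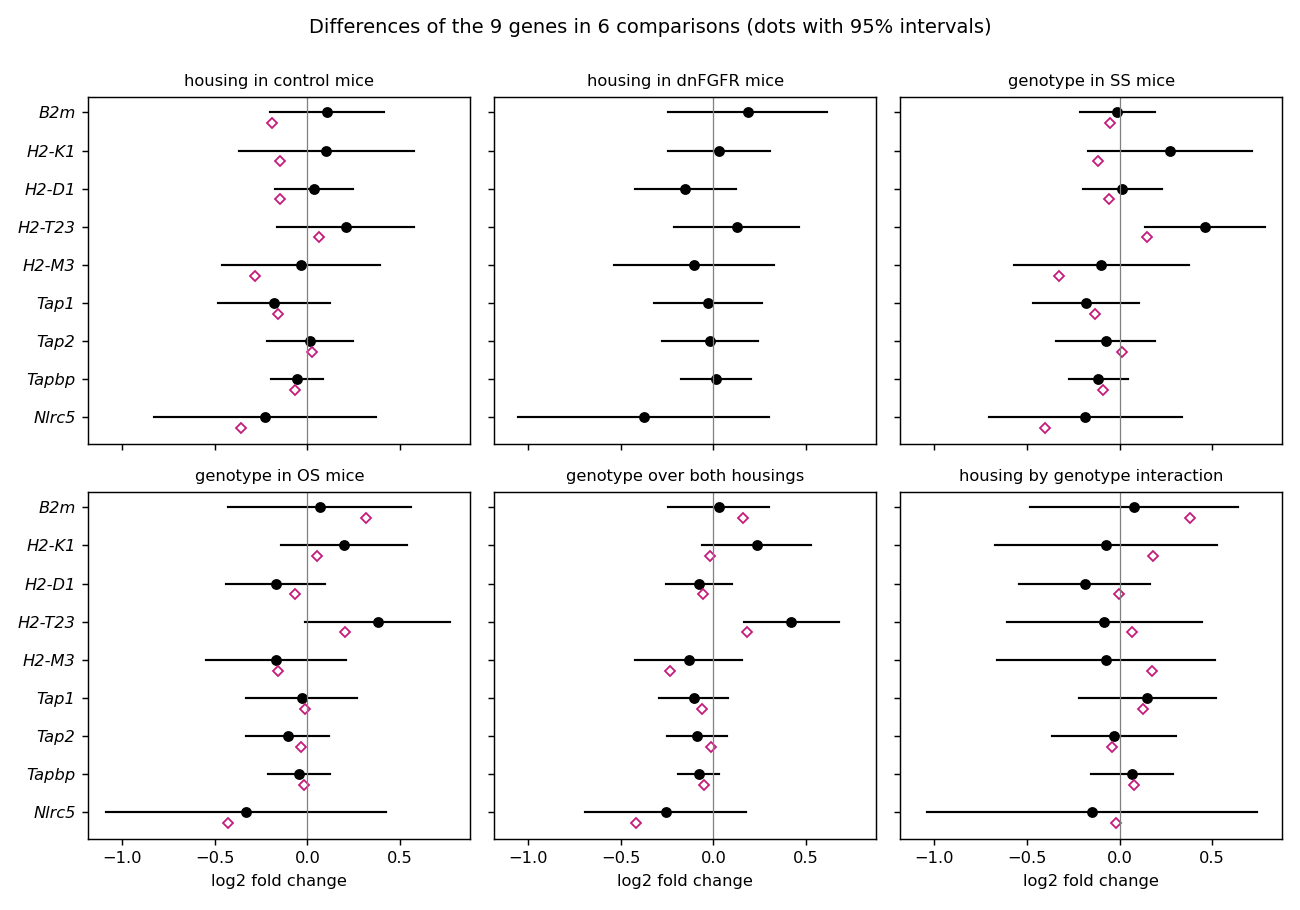
Log2 fold change (x axis) of each gene (y axis) in the 6 comparisons, as dots with 95% intervals from edgeR, with open diamonds for the value without the 5 control mice that had H2-Ea reads. Only the intervals of H2-T23 in SS mice and over both housings lay above 0, and its diamonds lay nearer to 0.

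Other genes of the H2 region were compared between genotypes to describe the stretch in which 7 of the 9 genes lie. Of the genes that start between Tapbp and H2-M3, 140 were tested over both housings and 3 passed (2.14%, beside 1.33% of all genes). Gm11127 and Gm10499, both near 0 in dnFGFR mice, had higher counts in the 5 control mice named above. Only through those mice did these genes have enough reads to be tested, so the share of 2.14% is no result about the region. Flot1, which encodes a membrane scaffold protein, was higher in dnFGFR mice by 0.24 ± 0.06 (adjusted p = 0.0467). Without the 5 control mice Flot1 was at 0.21 ± 0.08 (adjusted p = 0.504), and Gm11127 and Gm10499 had too few reads to be tested. None of 135 genes passed in SS mice and none of 132 in OS mice. H2-Q1, a class Ib heavy chain gene, had a log2 fold change of -1.02 ± 0.29 (adjusted p = 0.125), opposite in sign to H2-T23, and it was at -0.03 ± 0.21 without the 5 mice. Within 1 Mb of B2m on chromosome 2, 0 of 32 genes passed, and within 1 Mb of Nlrc5 1 of 37 did, which was Pllp.

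Related gene lists were read in the same fits, over both housings, and in the other 5 comparisons no gene of any list passed. Over both housings 1.33% of all genes passed, a share to be read beside the list counts. Of 14 tested genes among 20 other class I and class I-like heavy chains, 0 passed. H2-Q1 (above) and H2-T10, at -0.59 (adjusted p = 0.232), had the smallest p. H2-T10 had 153 to 244 reads in the 5 control mice with H2-Ea reads and 50 to 131 in the others. Of the 14 genes, 5 lay above 0 and 9 below. Of 8 genes for peptide loading and trimming, 0 passed, with Hspa5, an endoplasmic reticulum chaperone gene, at 0.11 and Tapbpl, which encodes a tapasin-related peptide editor, at -0.14. For OS housing, 6 of these 8 lay above 0 and 2 below in each genotype. In control mice 4 had an unadjusted p under 0.05 and in dnFGFR mice 2, beside 7.20% and 6.72% of all genes. Hspa5 was then at 0.24 in both genotypes (adjusted p = 0.252 in control and 0.726 in dnFGFR mice, edgeR). Of 5 immunoproteasome and activator genes 0 passed between genotypes, with Psmb10 at 0.15 and Psme1 at 0.09. Of these 5, 3 lay above 0 and 2 below. Of 15 genes for factors that act on class I promoters 0 passed, with Nfyb, an NF-Y subunit gene, at 0.16 (adjusted p = 0.182) and Rfxank, a subunit gene of the RFX complex, at -0.20 (adjusted p = 0.322). Of 11 class II presentation genes 0 passed, with Ctss, which encodes the invariant chain protease cathepsin S, at 0.14 and H2-Ob at 0.37. Of these 11, 5 lay above 0 and 6 below, at a median of -0.0015.

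Of 28 interferon-stimulated genes, 1 was lower in dnFGFR mice and none was higher. This was Mx2, an antiviral GTPase gene, at -0.66 ± 0.17 (adjusted p = 0.0747) and 16 to 77 reads a mouse. It was at -0.25 ± 0.22 in SS mice and -1.10 ± 0.23 in OS mice, with an interaction of -0.85 ± 0.30 (unadjusted p = 0.00936, adjusted p = 0.963, edgeR), and it passed in none of these. Without the 5 control mice it was at -0.74 ± 0.23 over both housings and did not pass (adjusted p = 0.314). Isg15, a ubiquitin-like modifier gene, was next at -0.54 (adjusted p = 0.190). The median of the list was -0.04, and 12 genes lay above and 16 below 0. The list held 1 called gene of 28, beside 1.33% of all genes. The part of interferon in the H2-T23 value was not tested. In the interaction 22 of the 28 values were above 0 and 0 passed, with a median of 0.20.

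Markers of the cells that could hold class I RNA were compared too. Of 10 microglia markers 0 passed between genotypes, with Cx3cr1 at -0.09 and Trem2 at -0.10. Over both housings 5 of the microglia markers lay above 0 and 5 below, at a median of 0.018. In SS mice 2 of them lay above 0 and 8 below, and in OS mice 8 lay above and 2 below. Their summed level was 408 to 454 CPM in control SS, 416 to 437 in control OS, 384 to 430 in dnFGFR SS and 409 to 492 in dnFGFR OS mice. Of 10 endothelial markers 1 passed, Cldn5, a tight junction gene, at -0.40 ± 0.11 (adjusted p = 0.0948), and 8 of 10 lay below 0. Without the 5 control mice Cldn5 was at -0.42 ± 0.13 and did not pass (adjusted p = 0.335). The summed level of the endothelial markers was 330 to 349, 307 to 331, 276 to 342 and 272 to 362 CPM in the same order of groups. Of 8 oligodendrocyte markers 0 passed, but 7 had an unadjusted p under 0.05, beside 11.2% of all genes. All 8 lay below 0, with a median of -0.19. Olig1, an oligodendrocyte lineage factor gene, was at -0.24 (adjusted p = 0.156) and Mag, a myelin glycoprotein gene, at -0.23 (adjusted p = 0.191). Their summed level was 6176 to 8584 CPM in control mice and 4818 to 7601 CPM in dnFGFR mice. T cell genes were close to absent, with Cd3e at 0 to 5 and Cd8a at 0 to 5 reads a mouse, while Cd4 and Lck made up nearly all of that list's reads. Choroid plexus markers varied most between mice, from 41.3 to 2226 CPM in sum. All 8 were above 0 for OS housing in control mice at a median of 1.36. Of these, 4 had an unadjusted p under 0.05, beside 7.20% of all genes, and 0 were called. Between genotypes over both housings all 8 lay below 0 at a median of -0.33, with Aqp1 at -0.65 and Kcne2 at -0.69, and 0 were called or had an unadjusted p under 0.05. In OS mice their median was -0.90, with 0 called. Of 10 neuron markers 0 passed, with Snap25 at 0.19 and Slc32a1 at -0.20, and of 8 astrocyte markers 0 passed, with Aldh1l1 at 0.20 and Gfap at -0.10. Of 3 tested class I receptor genes 0 passed, with Cd247 at -0.06 and Klra2 at 0.12, and of 2 tested T cell markers 0 passed, with Cd4 at -0.20 and Lck at -0.09. Of 8 tested blood and border myeloid markers 0 passed, with Lyve1, a gene of border macrophages and lymphatic vessels, at 1.13 on 2 to 26 reads a mouse and Lyz2 at 0.33. Of these 8, 4 lay above 0 and 4 below, at a median of 0.013. Of 10 preoptic area markers 1 passed, Gnrh1, which was at -0.48 ± 0.20 without the 5 control mice and then did not pass (adjusted p = 0.562). The part of these cell types in the values of the 9 genes was not tested.

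Some of the 9 genes varied together from mouse to mouse within groups, first of all B2m, H2-D1 and the transporter genes. Pearson's r of log2 CPM was computed for all 36 pairs over 20 mice after group means were removed, with 100000 permutations within groups, and p-values were adjusted over the 36 pairs. Of 36 pairs 32 were positive and 8 had an adjusted permutation p under 0.05, 6 of them by Spearman's rho too. B2m and H2-D1, light and heavy chain, had the highest r at 0.83 (permutation p = 0.00056, adjusted 0.00672) with a rho of 0.81 (p = 0.00047, adjusted 0.00612). Without the 2 mice farthest from the median of B2m r was 0.78, and it was 0.80 without dnFGFR OS replicate 5. The transporter genes Tap1 and Tap2 had an r of 0.71 (permutation p = 0.00215, adjusted 0.0155) and a rho of 0.77 (p = 0.00051, adjusted 0.00612), with r at 0.66 without the 2 farthest mice. H2-D1 and Tap2 had an r of 0.73 (permutation p = 0.00031, adjusted 0.00558) and a rho of 0.72 (p = 0.00081, adjusted 0.00729), with r at 0.74 without the 2 farthest mice. Collection dates held at most 4 mice, too few for an r within a date.

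H2-K1 had a higher r with 6 of the 8 others when the mice that stood apart were left out, a comparison chosen after the data were seen and given without a test. The exceptions were H2-T23 and Nlrc5. Over 20 mice the r of H2-K1 was 0.34 with H2-D1, 0.16 with B2m and 0.24 with Tap2. Over the 15 mice without H2-Ea reads it was 0.83, 0.61 and 0.79. The r of H2-T23 with H2-K1 went from 0.62 to 0.45, and that of Nlrc5 with H2-K1 from 0.11 to -0.17. H2-T23 and B2m went from 0.38 to 0.85, but the value over 20 mice was 0.055 without dnFGFR OS replicate 5, a mouse that was kept among the 15. B2m and H2-D1 stayed at 0.80 and H2-D1 and Tap2 at 0.79. The highest r of Nlrc5 was 0.46 with H2-M3 over 20 mice (adjusted permutation p = 0.171) and 0.56 without dnFGFR OS replicate 5. Its r with B2m was -0.45 over 20 mice (adjusted permutation p = 0.324) and -0.14 without dnFGFR OS replicate 5.

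**Figure D5:**
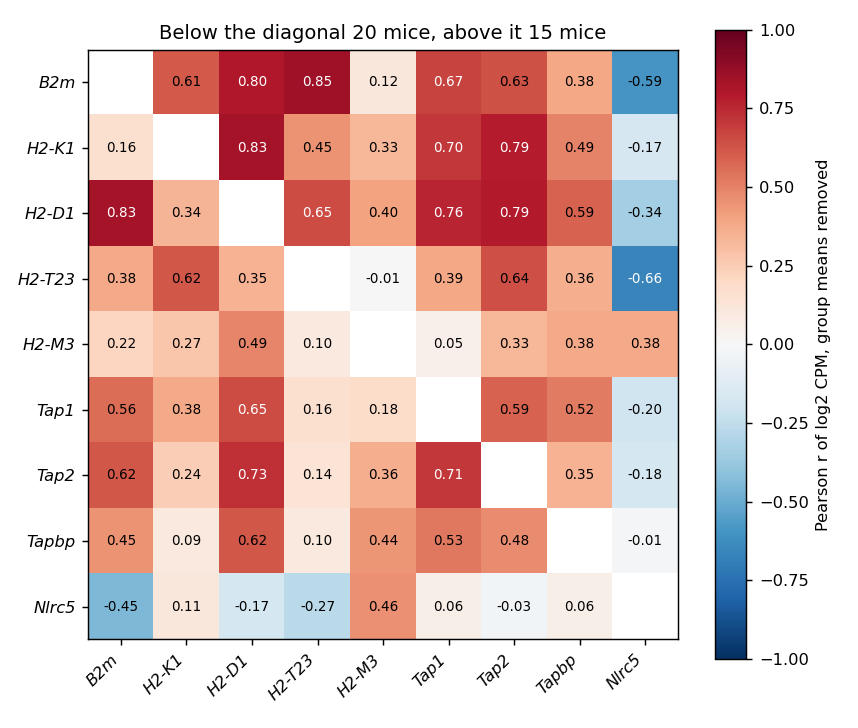
Pearson's r of log2 CPM between the 9 genes (both axes) with group means removed, over 20 mice below the diagonal and over the 15 mice without H2-Ea reads above it. B2m, H2-D1, Tap1 and Tap2 were correlated below and above the diagonal, while H2-K1 was correlated with them mainly above it.

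Genes outside the 9 were ranked by their likeness to the mean of the 9 genes, among 15279 genes with a mean of at least 1 CPM over the 20 mice and with group means removed. The 10 with the highest r were H2-L (0.83), Rsph1 (0.82), Rcn2 (0.82), Ifi27 (0.80), Cd300c2 (0.80), H2-T22 (0.79), Tspo (0.79), Dnajb2 (0.79), Snhg3 (0.79) and R74862 (0.78). H2-L and H2-T22 are class I heavy chain genes whose reads may overlap with those of the 9. With group means kept, H2-L, Ifi27, H2-T22, Rcn2, Snhg3, Cd300c2 and Rsph1 were again among the 10, with Scrn2 (0.76), H2-Q6 (0.75) and B630019K06Rik (0.74) in place of the others.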

How the data were processed

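The authors deposited a table of read counts per gene over 40 mouse columns, of which the 20 columns of the PND320 mice were used and 20 were not used. The submitters' processing notes name HISAT2, GRCm38 and DESeq2 1.36.0, and settings for strand and for reads with several matches are not given in the sources used here. Counts were tested as deposited with edgeR 4.0.16 in R 4.3.3 (TMM, expression filter, quasi-likelihood test), each pair of groups in its own fit and all 20 mice in 1 fit for genotype over both housings and for the interaction. A gene passed at a Benjamini-Hochberg adjusted p under 0.1, the threshold of the study's methods. The study tested with DESeq2 after removing outlier samples, so its counts of genes are not like for like with those given here. The fits were tested on simulated data. RPKM used union exon lengths (GENCODE vM21), and positions and promoters are from RefSeq (GRCm38.p6). Alternatives were DESeq2 1.42.0, other size factors and filters, a replicate block, removal of GC and length trends, 1 fit for 4 groups, a date block and left-out mice. The members and lists were chosen with earlier results of these data known. Text names all members, list genes that passed or otherwise the 2 with the smallest p, region genes that passed and the 10 most similar genes. The replicates are separate mice.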

Additional observations from a re-analysis of the deposited data

Results flagged for a closer look

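Within groups of 5 mice, 5 of 36 combinations of gene and group held 1 mouse whose gap to its nearest neighbor exceeded Dixon's critical share of 0.71 of the group's range, and chance alone gives such a mouse in about 1 in 20 groups. B2m was at 34.3 CPM in dnFGFR OS replicate 5, where the nearest mouse was at 76.1 CPM. H2-K1 was at 43.3 CPM in dnFGFR SS replicate 3, against 30.4 CPM in the nearest mouse. H2-M3 was at 3.61 CPM in dnFGFR OS replicate 4, against 2.53 CPM in the nearest mouse. Tap1 was at 5.19 CPM in control SS replicate 4, against 4.00 CPM in the nearest mouse. Tapbp was at 35.5 CPM in control OS replicate 1, against 41.0 CPM in the nearest mouse.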

How the results depend on the processing

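The 54 log2 fold changes of the 9 genes were recomputed under 1197 combinations with an alternative, of which 90 turned the sign, 63 of them by leaving out 1 mouse, and none of these passed (smallest adjusted p 0.875, edgeR's quasi-likelihood test or DESeq2). H2-T23 over both housings passed under DESeq2 (0.42, adjusted p = 0.0490), with GC and length trends removed (0.43, 0.0592), the same with a replicate block (0.44, 0.0949), and without control SS replicate 5 (0.48, 0.0767), control OS replicate 2 (0.48, 0.0928) or dnFGFR OS replicate 5 (0.48, 0.0312), so that the count of the 9 was 1 under each of these and 0 to 1 over all left-out mice. Same-numbered mice share only a number: their correlations were between -0.23 and 0.26, and at most 1 of 5 correlated best with its own number. With the replicate block alone H2-T23 was at 0.43 (adjusted p = 0.197), H2-M3 for housing in control mice turned to 0.0073 and genotype in OS mice had 3 calls against 9.

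Leaving out the 5 control mice with H2-Ea reads, chosen after seeing the data, leaves 2 control SS and 3 control OS mice. It turned housing in control mice for B2m (-0.19), H2-D1 (-0.15) and H2-K1 (-0.15), genotype in SS mice for H2-D1 (-0.055), H2-K1 (-0.12) and Tap2 (0.012), genotype over both housings for H2-K1 (-0.021), and the interaction for H2-K1 (0.18), H2-M3 (0.18) and H2-T23 (0.066). Date as a block turned B2m for housing in dnFGFR mice (-0.11) and H2-D1 for housing in control mice (-0.0089). Removing GC and length trends, and then adding the block, turned H2-D1 genotype in SS mice (-0.021 and -0.021), H2-K1 interaction (0.028 and 0.036), Tap1 genotype in OS mice (0.028 and 0.032), Tap1 housing in dnFGFR mice (0.049 and 0.052), Tap2 interaction (0.067 and 0.063), Tap2 housing in dnFGFR mice (0.087 and 0.094) and Tapbp genotype in OS mice (0.044 and 0.043). The cause was not tested.

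Leaving out 1 mouse gave, for B2m, -0.029 to 0.24 (genotype in OS mice), -0.096 to 0.039 (genotype in SS mice), -0.019 to 0.11 (genotype over both housings), -0.013 to 0.26 (interaction) and -0.00096 to 0.20 (housing in control mice). For H2-D1 it gave -0.081 to 0.068 (genotype in SS mice) and -0.021 to 0.10 (housing in control mice). For H2-K1 it gave -0.21 to 0.093 (interaction), -0.061 to 0.25 (housing in control mice) and -0.035 to 0.18 (housing in dnFGFR mice). For H2-M3 it gave -0.23 to 0.078 (genotype in SS mice), -0.24 to 0.067 (interaction), -0.17 to 0.14 (housing in control mice) and -0.24 to 0.013 (housing in dnFGFR mice). H2-T23 was at -0.20 to 0.050 (interaction), and Nlrc5 at -0.30 to 0.0010 (genotype in SS mice) and -0.46 to 0.055 (interaction). Tap1 was at -0.092 to 0.016 (genotype in OS mice) and -0.073 to 0.015 (housing in dnFGFR mice). Tap2 was at -0.17 to 0.017 (genotype in SS mice), -0.12 to 0.080 (interaction), -0.037 to 0.11 (housing in control mice) and -0.064 to 0.079 (housing in dnFGFR mice), and Tapbp at -0.039 to 0.053 (housing in dnFGFR mice).

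Counts over all genes moved more. Genotype in OS mice had 45 calls with 4 groups in 1 fit, 78 with DESeq2, 24 with GC and length trends removed, 5 at an adjusted p under 0.05 and 3 to 16 without 1 mouse. Genotype in SS mice had 223 with DESeq2, 52 with trends removed and the block, and 21 to 70 without 1 mouse, against 34. Genotype over both housings had 102 without the 5 mice, 425 with DESeq2, 378 with trends removed and 176 to 336 without 1 mouse, against 232. Housing in control mice had 0 with 4 groups in 1 fit, 6 without the 5 mice, 157 with DESeq2, 39 with trends removed, 52 with the block added, 6 at an adjusted p under 0.05, 32 with at least 10 counts in every mouse, 1 with date as a block and 0 to 32 without 1 mouse, against 21. With DESeq2 the interaction had 1 call and housing in dnFGFR mice 5, against 0 each.

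Reads of near-identical heavy chain genes cannot be assigned with certainty, and some members overlap other genes. B2m lies within the span of Patl2, H2-T23 within that of A930015D03Rik, and Tapbp and Nlrc5 overlap noncoding genes. Nlrc5 had 19 to 86 reads a mouse and the widest intervals, and the parts of depth and of spread between mice in them were not tested.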

Other observations

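B2m and H2-T23 had an r of 0.93 over the 10 dnFGFR mice after group means were removed, and among the 10 control mice r was -0.25. Over all 20 mice it was 0.38, and 0.055 without dnFGFR OS replicate 5, the mouse lowest in its group for both genes. Among dnFGFR mice alone r was not computed without that mouse, so how far 0.93 rests on it is not known. H2-K1 and Tap2 had an r of 0.92 among dnFGFR mice and -0.04 among control mice. These values were chosen after the data were seen and the differences between genotypes were not tested. H2-Aa, a class II alpha chain gene, had a log2 fold change of 0.87 ± 0.26 for OS housing in dnFGFR mice and did not pass (adjusted p = 0.726, edgeR's quasi-likelihood test with Benjamini-Hochberg adjustment).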
